A study of Mus musculus with 12 samples.

Results

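The 91 cadherin and protocadherin genes described here are the rows of an FPKM table of the mouse cochlea whose symbols are Cdh followed by a number or begin with Pcdh, out of 37432 genes in all. Cdh23 and Pcdh15 were left out by this rule. By class the 91 genes comprise 5 classical type I cadherins, 13 classical type II cadherins, 4 other cadherins, 9 delta protocadherins, 2 other non-clustered protocadherins, and 14 alpha, 22 beta and 22 gamma genes of the clustered protocadherins. RNA-seq was done on cochleae of P14 male mice, wild-type or Gjb2 35delG/35delG (homozygous), cut into an apical, a middle and a basal turn, with 2 repeats of each of the 6 groups, giving 12 libraries. The homozygotes came from male embryonic stem cells through tetraploid embryo complementation, were delivered by cesarean, had ICR foster mothers and were close to C57BL/6J. The age-matched wild-type males were bought, so genotype cannot be told apart from origin. Several homozygous stem cell lines had been made. The line that gave the sequenced mice, and the number of mice pooled in a library, are not stated.

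Classical cadherins are calcium-dependent adhesion receptors whose intracellular tails bind beta-catenin and, through alpha-catenin, actin. They hold cells of like kind together at adherens junctions and at synapses. In the cochlea E-cadherin and N-cadherin outline different rows of cells in the organ of Corti, and type II cadherins mark groups of neurons, vessels, bone-forming cells and glia. The clustered protocadherins are transcribed from tandem variable exons, each with its own promoter. In the alpha and gamma clusters the chosen exon is spliced to constant exons shared by the whole cluster, and the resulting set of isoforms lets a neuron tell its own processes from those of its neighbours.

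Levels are given as FPKM divided by a scaling factor per library (0.917 to 1.057), a measure per length of transcript that can be compared between genes. The deposited FPKM summed to between 316425 and 408162 per library. They give no read depth, so the spread between repeats is the only error given, and the p-values measure only the spread between these libraries. Gjb2 transcript stood at 248 and 254 scaled FPKM in the wild-type apical libraries and at 332 and 376 in the homozygous ones, at 140 and 268 against 256 and 451 in the middle turn, and at 434 and 256 against 126 and 58.6 in the basal turn. The allele is a deletion of a single base, so the transcript level does not check the genotype label. By qPCR normalized to Gapdh, the authors found lower Gjb2 in homozygous cochleae at P14, a value not split by turn. In these libraries it was lower in the basal turn alone. Summed markers of several cell types differed between libraries and are given beside some of the results, whether or not they moved alike. In bulk pieces of tissue, fewer cells of a type and less RNA per cell cannot be told apart.

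Of the 91 genes, 64 reached 1 FPKM in at least 2 libraries and were tested, and 27 did not. None was listed at 0 in every library, and 32 reached 1 scaled FPKM in every library. The genes below the filter included 9 of the 14 alpha genes, 8 of the 22 beta genes and 1 of the 22 gamma genes. The muscle cadherin Cdh15 (mean of 0.316 scaled FPKM over the 12 libraries), the type II cadherins Cdh7 (0.125) and Cdh12 (0.0118), and the 3 cadherins Cdh16, Cdh17 and Cdh26 (0.0176 to 0.0865) were also below it. Pcdh8 (0.0707), Pcdh11x (0.238) and the endothelial protocadherin Pcdh12 (0.217) completed the group. A gene could pass the filter through the group in which it was high, so counts over the 64 tested genes do not describe all 91.

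The members lie in blocks of the genome. On chromosome 18 of GRCm38 lie 61 of them, namely Cdh2, Pcdh1, Pcdh12 and all 58 clustered genes. In the GENCODE annotation of this build, all 14 alpha genes share between 38.0% and 54.9% of their exonic bases with another member, and all 22 gamma genes between 27.8% and 66.8%. Of the beta genes, which have no constant exons, 2 share up to 9.67%. How the shared reads were divided among alpha or gamma genes is not stated, so the value of a single alpha or gamma gene is uncertain.

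Chromosome 8 carries 8 cadherins, Cdh1, Cdh3, Cdh5, Cdh8, Cdh11, Cdh13, Cdh15 and Cdh16. Chromosome 15 carries a row of 5 type II cadherins, in the order Cdh6 (chr15:13028701-13173675, minus strand), Cdh9 (chr15:16728756-16857094), Cdh10 (chr15:18818947-19014236), Cdh12 (chr15:21110125-21589533) and Cdh18 (chr15:23036463-23474418), the last 4 on the plus strand. Chromosome 1 carries Cdh20, Cdh7 and Cdh19 (chr1:110888326-110977363, minus strand).

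Promoter sequences are shown for the 3 chromosome 15 neighbours Cdh9, Cdh10 and Cdh18, whose levels ran alike across the libraries, for their neighbour Cdh6, whose levels did not, and for Pcdh20, which was lower in homozygotes in every turn. Each run is the 100 bases just before a RefSeq start of the gene on its own strand in GRCm38.p6, with CG dinucleotides in capitals. The runs of Cdh9 and Cdh10 lie inside the spans given above for these genes, past the first bases at 16728756 and 18818947. They are therefore not upstream of every annotated start. Positions are chr15:13173676-13173775 (minus strand) for Cdh6, chr15:16728815-16728914 for Cdh9, chr15:18820229-18820328 for Cdh10, chr15:23036363-23036462 for Cdh18 (all plus strand) and chr14:88471397-88471496 (minus strand) for Pcdh20.
Cdh6: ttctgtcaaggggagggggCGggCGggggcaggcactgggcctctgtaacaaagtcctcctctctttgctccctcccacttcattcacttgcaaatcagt
Cdh9: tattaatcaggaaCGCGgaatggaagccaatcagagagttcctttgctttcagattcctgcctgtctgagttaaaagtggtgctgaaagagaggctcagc
Cdh10: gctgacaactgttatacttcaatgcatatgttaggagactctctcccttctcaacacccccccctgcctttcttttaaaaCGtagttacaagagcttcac
Cdh18: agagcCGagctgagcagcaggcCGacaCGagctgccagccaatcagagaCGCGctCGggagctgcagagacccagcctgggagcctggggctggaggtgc
Pcdh20: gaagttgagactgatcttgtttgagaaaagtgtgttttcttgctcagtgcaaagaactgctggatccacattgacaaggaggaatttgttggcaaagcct

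In the full window of 300 bases (250 before and 50 after the start), Cdh6 and Cdh9 held 8 CG dinucleotides each, Cdh10 held 2, Cdh18 held 12 and Pcdh20 held 4. The median was 7 over 32851 RefSeq promoters and 18 over the 23 promoters of the 20 members in the table. The windows used for Cdh9, Cdh10 and Cdh18 thus ranged from CG-poor to moderately CG-rich. The E-box CAGGTG, on either strand, occurred in 20.2% of all promoters and, among members, in Cdh7 and Pcdh7. The E-box CAGCTG occurred in 16.3% of all promoters and, among members, in Cdh9 and Cdh12. TATAAA occurred in 13.6% of all promoters and, among members, in Pcdh8 alone, and TGACGTCA in 1.79% of all promoters and in none of the 23. None of these motifs was shared by the windows of Cdh9, Cdh10 and Cdh18. Other shared stretches were not searched, and the printed runs of Cdh9 and Cdh18 both hold agccaatcagaga. These are matches of letters in this window.

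Among the classical type I cadherins Cdh1 (E-cadherin, of epithelial adherens junctions) had by far the highest level, with a mean of 62.0 scaled FPKM over the 12 libraries, the highest of all 91 genes. It made up between 67.9% and 93.0% of the summed level of the 5 type I genes. Cdh2 (N-cadherin) had a mean of 8.97, Cdh3 (P-cadherin) of 1.60 and Cdh4 (R-cadherin) of 1.19. The type II class was led by Cdh11 (a mean of 22.4, a cadherin of mesenchyme and osteoblasts), Cdh5 (13.3, the cadherin of endothelial junctions) and Cdh19 (6.50, expressed in the Schwann cell lineage). Cdh13, which is anchored to the membrane by a lipid and lacks an intracellular tail, had a mean of 2.08.

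The non-clustered protocadherins were led by Pcdh1 (a mean of 10.3 scaled FPKM), Pcdh20 (9.98), Pcdh7 (7.98) and Pcdh9 (7.25). Of the clustered genes, the C-type gamma gene Pcdhgc3 had a mean of 22.03, more than any other clustered gene, and made up 21.0% to 36.8% of the summed level of the gamma cluster. Pcdhgb6 (6.53) and Pcdhgb7 (3.62) followed it. The leading beta genes were Pcdhb17 (3.37), Pcdhb20 (2.22) and Pcdhb22 (2.11), and the leading alpha genes were Pcdhac2 (2.10), Pcdha2 (1.15) and Pcdha4 (0.891). The median of the gene means was 2.39 in the gamma cluster, 0.897 in the beta cluster and 0.368 in the alpha cluster.

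The comparison of homozygous with wild-type libraries within each turn asked which genes differ between these mice, which also differ in origin, and where along the cochlea. Calls required an adjusted p below 0.01 together with a change beyond 2-fold in limma across all 16215 tested genes. In the apical turn 0 of the 64 tested members were called, against 0.179% of all genes, and 7 members (10.9%) had an unadjusted p under 0.05, against 16.4% of all genes. In the middle turn 0 were called, also against 0.179%, and 21 (32.8%) had an unadjusted p under 0.05, against 25.4%. In the basal turn 0 were called, against 4.29%, and 25 (39.1%) had an unadjusted p under 0.05, against 32.4%. On the mean of the 3 turns 0 were called, against 0.376%, and 9 (14.1%) had an unadjusted p under 0.05, against 18.6%.

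Cdh1 was higher in homozygotes than in wild-type at the apex and at the middle. At the apex it stood at 52.5 and 46.7 scaled FPKM in the wild-type repeats and at 106 and 97.3 in the homozygous repeats, and at the middle at 35.0 and 41.8 against 70.7 and 92.0. At the base the wild-type repeats had 64.2 and 49.1 and the homozygous repeats 47.8 and 40.4. Homozygotes thus exceeded wild-type without overlap toward the apex and at the middle, and fell below it at the base. By limma its log2 difference was 1.02 ± 0.20 (SE, n = 2 against 2; adjusted p = 0.0588) at the apex, 1.06 ± 0.20 (adjusted p = 0.0357) at the middle and -0.35 ± 0.20 (adjusted p = 0.273) at the base. The middle turn value passed an adjusted p of 0.05 but not the 0.01 of a call. Summed markers of epithelium (7 genes) gave 211 and 203 against 325 and 254 at the apex (wild-type first), 101 and 106 against 177 and 279 at the middle, and 281 and 126 against 43.4 and 5.08 at the base. Their part in the Cdh1 values was not tested.

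Cdh19 ran the opposite way, lower in homozygotes at the middle and higher at the base. It stood at 9.34 and 12.5 scaled FPKM in wild-type and at 3.04 and 3.59 in homozygous libraries of the middle turn, and at 3.61 and 5.71 against 8.21 and 13.1 in the basal turn. The groups did not overlap in either turn. In the apical turn they overlapped, at 4.23 and 5.23 against 3.35 and 5.96. The log2 difference was -1.46 ± 0.31 (SE; limma, adjusted p = 0.0411) at the middle and 1.04 ± 0.31 (adjusted p = 0.0475) at the base. Summed Schwann cell markers (10 genes) moved in the same directions, with 19649 and 5805 against 828 and 834 at the middle (wild-type first) and 1555 and 5563 against 9294 and 14659 at the base. Their part in the Cdh19 values was not tested.

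The chromosome 15 cadherins Cdh9, Cdh10 and Cdh18, which are expressed in neurons, followed the same course. Cdh9 stood at 2.91 and 5.22 scaled FPKM in wild-type and 0.849 and 0.0641 in homozygous middle turns, but at 0.0799 and 0.202 against 6.69 and 2.47 in basal turns. Cdh10 stood at 4.01 and 2.17 against 0.910 and 1.15 in the middle turn and at 0.464 and 1.45 against 2.95 and 4.18 in the basal turn. Cdh18 stood at 3.26 and 4.35 against 1.505 and 1.07 in the middle turn and at 0.619 and 2.40 against 4.57 and 4.49 in the basal turn. For all 3 genes the homozygous libraries lay below the wild-type ones in the middle turn and above them in the basal turn, with no overlap. Summed markers of spiral ganglion neurons (14 genes, none at 0 in every library) ran the same way, at 1975 and 2398 against 486 and 129 in the middle turn and at 98.1 and 1064 against 3199 and 3902 in the basal turn. The part of neuron content in these values was not tested. Cdh12, which lies between Cdh10 and Cdh18, did not exceed 0.0364 in any library. The fifth gene of the row, Cdh6, had its highest values in the wild-type apical turn (10.9 and 8.46) and its lowest in the homozygous basal turn (2.11 and 1.74). Summed hair cell markers (9 genes) were likewise highest in the wild-type apical turn (547 and 545) and lowest in the homozygous basal turn (10.8 and 9.72), and stood at 24.9 and 101 against 213 and 383 in the middle turn. Their part in the Cdh6 values was not tested.

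In the basal turn the log2 difference was 2.18 ± 0.45 (SE) for Cdh9, 1.26 ± 0.32 for Cdh10 and 1.24 ± 0.32 for Cdh18 (limma, adjusted p = 0.0142, 0.0273 and 0.0298). In the middle turn it was -1.82 ± 0.45, -0.98 ± 0.32 and -1.07 ± 0.32 (adjusted p = 0.0587, 0.102 and 0.0871). The apical turn gave -0.84 ± 0.45, -0.01 ± 0.32 and -0.37 ± 0.32, with adjusted p between 0.402 and 0.995. For Cdh6 the log2 differences were -0.63, 0.07 and -0.61 in that order (apex, middle, base), with adjusted p from 0.124 to 0.880.

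Cdh22, a type II cadherin of chromosome 2 (chr2:165111507-165234853), stood at 0.160 and 0.392 scaled FPKM in wild-type and at 1.79 and 1.40 in homozygous basal turns, with a log2 difference of 1.03 ± 0.20 (SE; limma, adjusted p = 0.0119). In the middle turn it stood at 0.982 and 1.48 against 0.585 and 0.698, and in the apical turn at 1.33 and 1.44 against 1.08 and 0.965. Its homozygous libraries were thus lower in those turns without overlap, although neither difference had an adjusted p below 0.2. Cdh20, which lies next to Cdh7 and Cdh19, was at 6.36 and 1.04 against 0.202 and 0.0781 in the middle turn and at 0.500 and 1.47 against 2.98 and 3.80 in the basal turn. The first wild-type middle library alone gave its highest value.

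**Figure D1:**
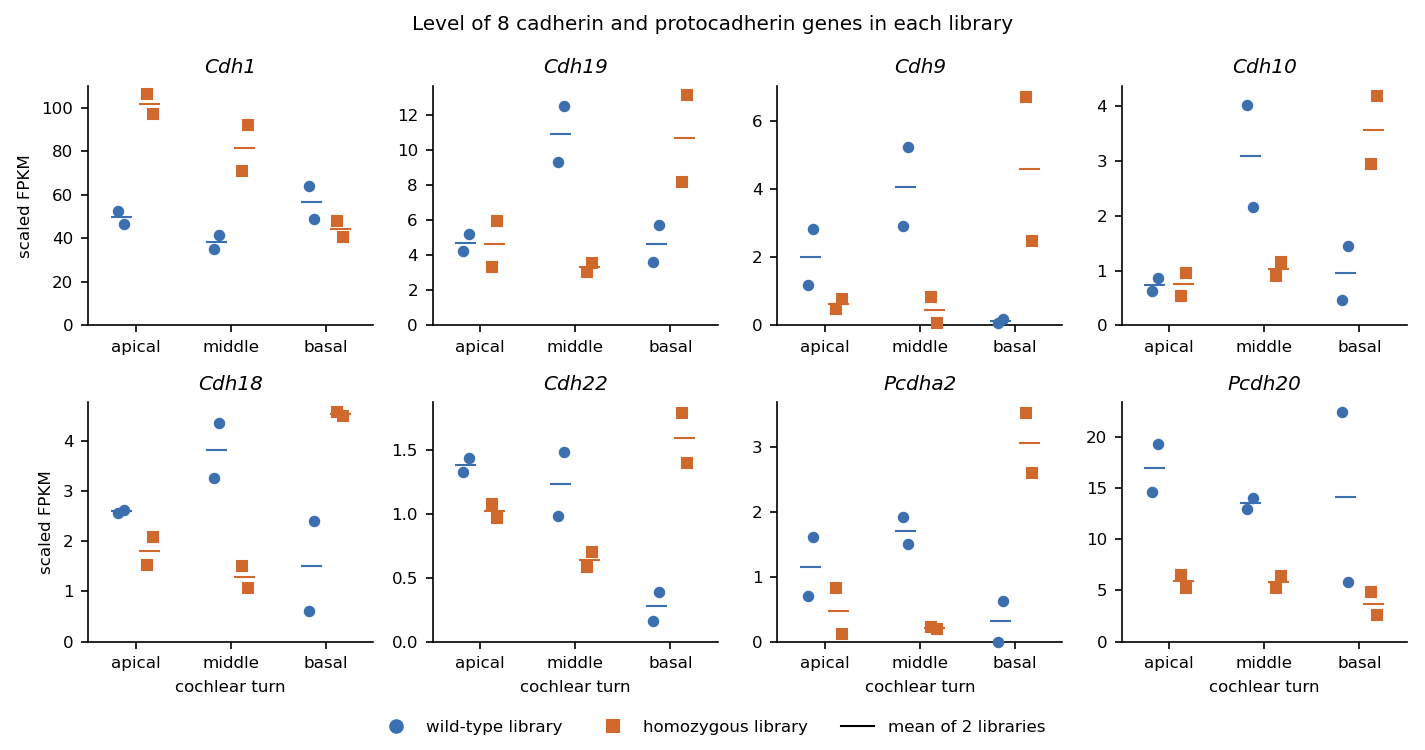
Level of 8 genes in scaled FPKM (vertical axes, linear, each from 0) by cochlear turn. Blue circles are wild-type libraries, orange squares homozygous libraries and bars the mean of 2 libraries. Cdh19, Cdh9, Cdh10, Cdh18, Cdh22 and Pcdha2 were lower in homozygous middle turns and higher in homozygous basal turns, and Pcdh20 was lower in all 3.

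At the looser adjusted p of 0.05 with the same limit on the fold change, 2 members passed in the middle turn (Cdh1 and Cdh19), 3.12% against 2.93% of all genes. In the basal turn 8 members passed, 12.5% against 12.1% of all genes. Those 8 were the type II cadherins Cdh9, Cdh10, Cdh18, Cdh19 and Cdh22 and the alpha genes Pcdha2, Pcdha4 and Pcdhac2, all higher in homozygous libraries. The share of members past the test was thus close to that of all genes in both turns.

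The type II class as a whole differed in direction between the turns. Of its 11 tested genes, 10 had a negative log2 difference in the apical turn and 7 in the middle turn, while 9 had a positive one in the basal turn. The median log2 difference of the class was -0.17 at the apex, -0.43 at the middle and 1.03 at the base, beside -0.03, 0.04 and -0.02 over all tested genes. The neuron marker sums were also lower in homozygotes at the apex and the middle and higher at the base. The type I class had medians of 0.10, -0.07 and 0.21, with 2 genes above and 2 below 0 in each turn.

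Cdh11 and Cdh5 did not follow the neuronal cadherins. Cdh11 was at 6.70 and 7.62 scaled FPKM in wild-type and 13.6 and 21.8 in homozygous apical turns, a log2 difference of 1.16 ± 0.73 (SE; limma, adjusted p = 0.477). Its wild-type basal libraries held 9.92 and 50.9, a spread wider than the difference between genotypes. Summed osteoblast markers (9 genes) in the same basal libraries were 298 and 2617, and in the apical libraries 54.3 and 114 in wild-type and 282 and 640 in homozygotes. Summed mesenchyme markers (8 genes) did not run alike, at 8483 and 6798 against 6274 and 6748 in apical turns (wild-type first). In the wild-type basal libraries they stood at 7648 and 7643. The part of these markers in the Cdh11 values was not tested. Cdh5 differed by no more than 0.04 on the log2 scale in any turn. With an SE of 0.32 this does not exclude changes as large as that error or somewhat larger. Its sign changed with single libraries left out.

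**Figure D2:**
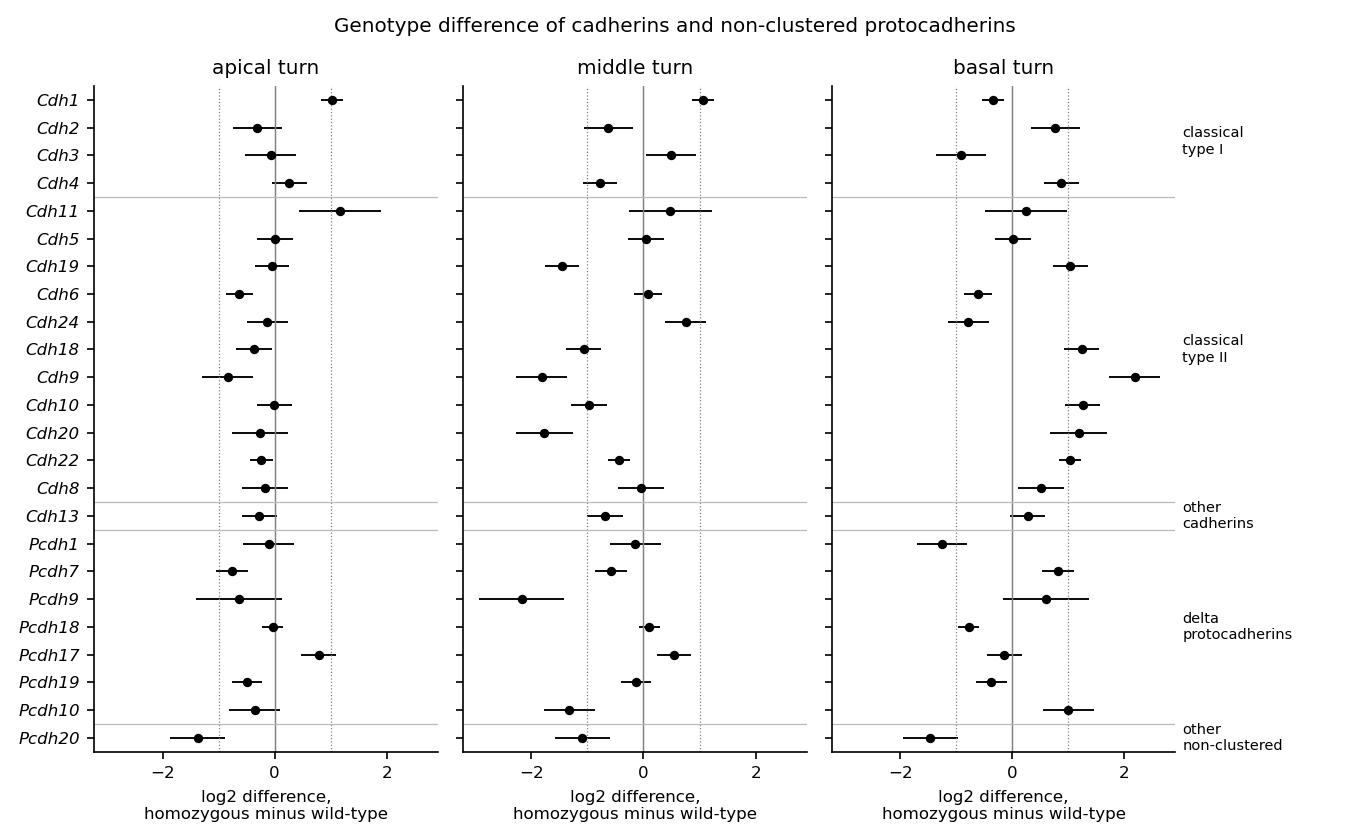
Log2 difference of homozygous minus wild-type libraries (horizontal axes) for the 24 tested cadherins and non-clustered protocadherins in the 3 turns. Points are estimates, bars 1 SE, dotted lines a 2-fold change and grey lines the class limits. Most type II cadherins lie left of 0 in the middle turn and right of it in the basal turn, while Pcdh20 lies left of -1 in all 3.

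Pcdh20 (chr14:88464743-88471396, minus strand) was lower in homozygous libraries in every turn. It stood at 14.6 and 19.2 scaled FPKM against 6.51 and 5.25 at the apex (wild-type first), and at 13.0 and 13.96 against 5.21 and 6.42 at the middle. In basal turns it stood at 22.4 and 5.81 against 4.84 and 2.57. Its genotypes did not overlap in any turn, although the second wild-type basal library came close to the homozygous ones. The log2 difference was -1.38 ± 0.49 (SE), -1.09 ± 0.49 and -1.47 ± 0.49 in the 3 turns (limma, adjusted p = 0.215, 0.204 and 0.0700) and -1.31 ± 0.28 on their mean (adjusted p = 0.0519). Without the second wild-type basal library, when the lone one left is assumed to vary like the other groups, it was -1.61 on the mean (adjusted p = 0.0013) and -2.36 at the base (adjusted p = 0.0018), both past the call, whereas without the first it was -0.58 at the base (adjusted p = 0.295).

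Pcdhb12 of the beta cluster was the only other tested member whose homozygous libraries lay below the wild-type ones in all 3 turns. It stood at 2.33 and 1.69 against 0.791 and 0.680 scaled FPKM in the apical turn, 1.40 and 1.41 against 0.737 and 0.879 in the middle turn, and 1.25 and 1.14 against 1.01 and 0.838 in the basal turn. Its log2 difference on the mean of the turns was -0.46 ± 0.11 (SE; limma, adjusted p = 0.0607). These 2 genes make up 3.12% of the 64 tested members, and 2.06% of all tested genes were likewise lower in all 3 turns. No tested member was higher in all 3 turns, against 1.53% of all genes.

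Of the 7 tested delta protocadherins, which include synaptic and axonal adhesion molecules, 6 had a negative log2 difference at the apex, 5 at the middle and 4 at the base. Homozygous libraries lay below wild-type ones without overlap for 4, 5 and 2 of them, against 32.1%, 28.2% and 27.8% of all tested genes, and none was called. Pcdh9 was at 26.6 and 4.17 scaled FPKM in wild-type and 1.64 and 1.65 in homozygous middle turns, a log2 difference of -2.18 ± 0.77 (SE; limma, adjusted p = 0.124). The first wild-type middle library, which gave the high value, also held 1534 of summed oligodendrocyte and astrocyte markers (10 genes), against 13.0 in its repeat and 7.1 and 10.7 in the homozygous middle libraries. Pcdh10 had the same high library, at 3.87 against 0.636 in its repeat. The part of these markers in the values was not tested.

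Pcdh1 was lower in homozygous basal turns, at 5.58 and 2.41 against 17.9 and 5.75, a log2 difference of -1.25 ± 0.45 (limma, adjusted p = 0.0889). Pcdh7 was at 4.71 and 9.09 against 14.4 and 10.7 in basal turns (0.82 ± 0.29, adjusted p = 0.0806) and at 9.36 and 8.38 against 5.15 and 4.54 in apical turns (-0.76 ± 0.29, adjusted p = 0.242). Pcdh18 was at 3.37 and 4.78 against 1.99 and 1.87 in basal turns (-0.78 ± 0.19, adjusted p = 0.0231), which is under 2-fold on the log2(scaled FPKM + 1) scale of the calls. The class median was -0.36 at the apex and -0.15 at the middle and the base.

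The 3 protocadherin clusters differed in how their summed levels varied. The alpha cluster summed to 4.73 and 6.28 scaled FPKM in wild-type and 2.27 and 2.696 in homozygous apical turns, and to 11.0 and 9.57 against 3.26 and 1.04 in middle turns. In basal turns it summed to 0.449 and 7.48 against 23.8 and 17.3. The homozygous sums were thus lower in the apical and middle turns and higher in the basal turn, without overlap. All 5 tested alpha genes, of 14, had a negative log2 difference in the middle turn and a positive one in the basal turn. Their medians were -0.92 and 1.57. The filter favoured these signs. Pcdha12 reached 1 scaled FPKM only in homozygous basal libraries (1.65 and 1.21). Pcdha7 did so only in a wild-type middle (1.54) and a homozygous basal library (1.36). Of the untested genes, Pcdha1 alone had a lower mean in homozygous basal libraries (0.0106 against 0.388). The count of signs thus does not describe all 14. Pcdha2 was at 1.92 and 1.503 against 0.232 and 0.198 in the middle turn (limma, -1.15 ± 0.34, adjusted p = 0.0823) and at 0 and 0.621 against 3.52 and 2.60 at the base (1.66 ± 0.34, adjusted p = 0.0132). Pcdhac2 was at 0.122 and 2.92 against 6.83 and 5.65 in the basal turn (1.78 ± 0.50, adjusted p = 0.0396).

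The neuron marker sums given above were low and high in the same libraries as the alpha cluster, and in apical turns stood at 855 and 1230 scaled FPKM in wild-type and 292 and 496 in homozygotes. The 3 lowest libraries were the same for both sums, namely the first wild-type basal, the second homozygous middle and the first homozygous apical library, and the 2 highest were the homozygous basal libraries for both. The part of neuron content in these differences was not tested.

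The beta cluster varied less. It summed to 26.5 and 26.4 scaled FPKM against 22.8 and 20.8 in the apical turn, 27.3 and 33.9 against 18.7 and 14.5 in the middle turn, and 25.0 and 18.4 against 31.2 and 23.4 in the basal turn. All 14 tested beta genes had a negative log2 difference in the middle turn, 12 of them with no overlap, against 28.2% of all tested genes, and the class median there was -0.44. In the basal turn 9 were positive and 5 negative, with a median of 0.32. None was called, and the largest difference in the middle turn, that of Pcdhb17 (-1.38 ± 0.53, SE; limma, adjusted p = 0.150), rested on a single library listed at 0 while the other 11 held between 2.53 and 4.97. The filter favoured a negative middle turn sign for some beta genes. Pcdhb3 reached 1 scaled FPKM only in a wild-type middle (1.20) and a homozygous basal library (1.71). Pcdhb10 did so only in the wild-type middle libraries (1.10 and 1.12) and a homozygous basal library (1.20). The untested beta genes also had lower means in homozygous than in wild-type middle libraries.

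The gamma cluster stayed between 54.1 and 87.6 scaled FPKM in every library, with sums of 79.1 and 69.8 against 85.7 and 83.1 in the apical turn, 87.6 and 54.1 against 75.3 and 81.6 in the middle turn, and 64.1 and 63.2 against 68.3 and 61.0 in the basal turn. The genotypes overlapped in the middle and basal turns. The median log2 difference of its 21 tested genes was 0.05 at the apex, -0.01 at the middle and 0.01 at the base. Pcdhgc3 was at 20.6 and 19.3 against 26.9 and 30.6 in the apical turn, 27.1 and 14.4 against 27.3 and 26.3 in the middle turn, and 13.4 and 20.1 against 20.5 and 17.7 in the basal turn, with a log2 difference of 0.38 ± 0.16 (SE) on their mean (limma, adjusted p = 0.254). Pcdhgc4, another C-type gene, was at 0.191 and 0.305 against 1.36 and 0.841 in the basal turn (0.74 ± 0.21, adjusted p = 0.0435). On the log2(scaled FPKM + 1) scale this is under 2-fold, which understates the change of so low a gene.

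**Figure D3:**
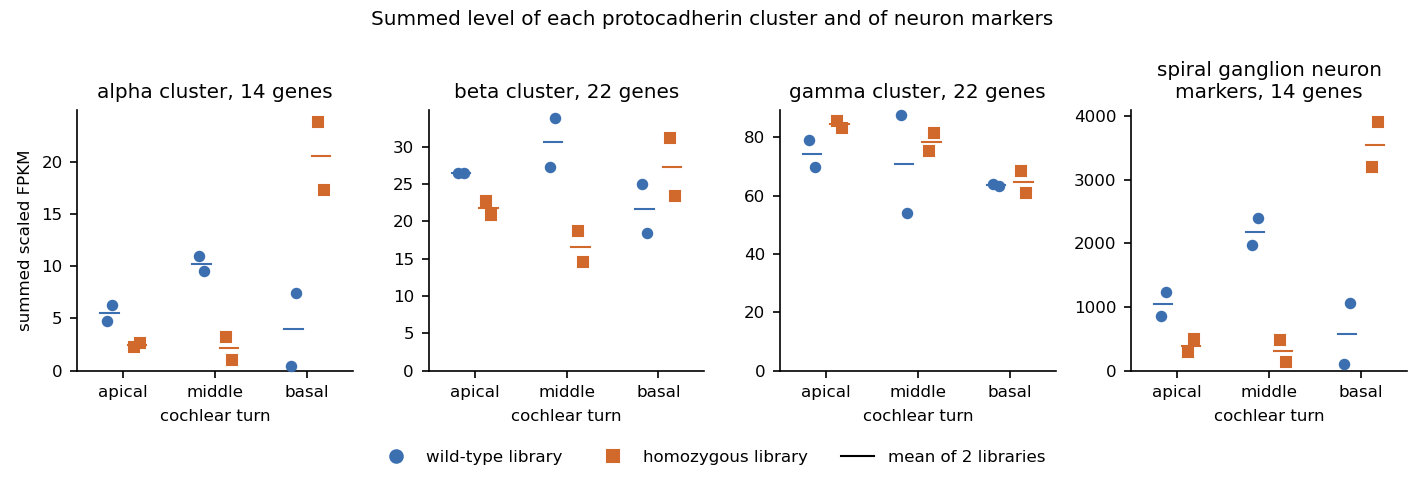
Summed level, in scaled FPKM (vertical axes, linear, each from 0), of the alpha, beta and gamma protocadherin clusters and of 14 spiral ganglion neuron markers in the 3 turns. Blue circles are wild-type libraries, orange squares homozygous libraries and bars the mean of 2 libraries. Alpha and neuron sums are lowest in the same library (0.449 and 98.1), while the gamma sum lies between 54.1 and 87.6 throughout.

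**Figure D4:**
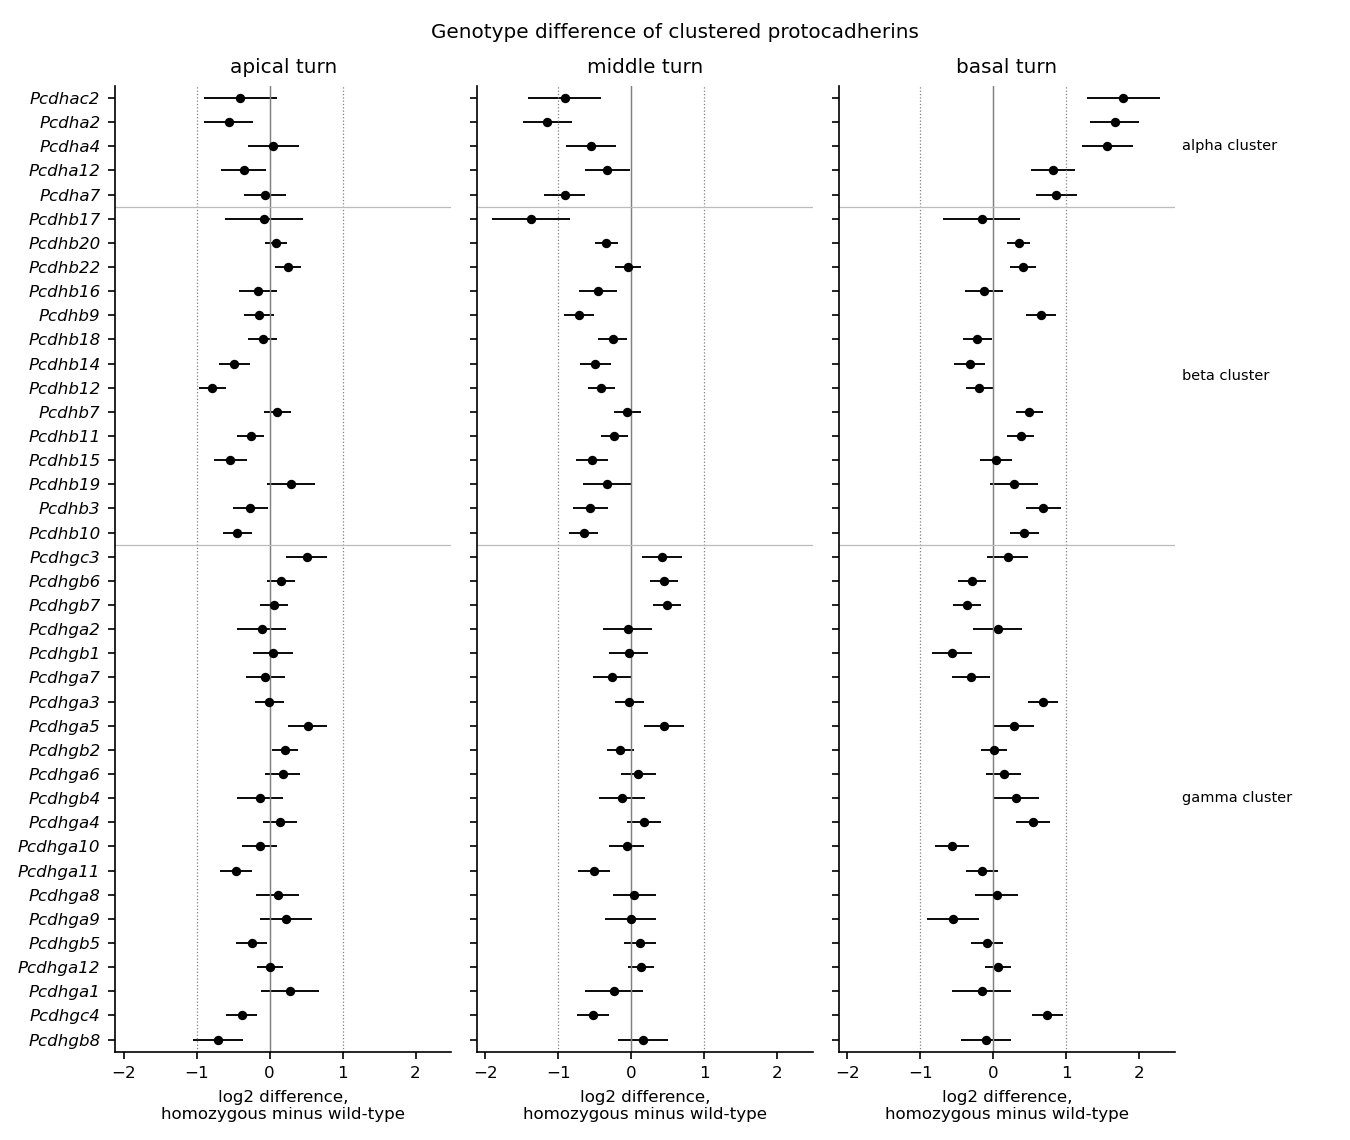
Log2 difference of homozygous minus wild-type libraries (horizontal axes) for the 40 tested clustered protocadherins in the 3 turns. Points are estimates, bars 1 SE, dotted lines a 2-fold change and grey lines the cluster limits. Alpha genes lie left of 0 in the middle turn and right of it in the basal turn, beta genes lie left of 0 in the middle turn, and gamma genes lie on both sides of 0.

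Over all classes, members whose homozygous libraries lay below both wild-type libraries numbered 27 of 64 at the apex (42.2%), 35 at the middle (54.7%) and 13 at the base (20.3%). The same held for 32.1%, 28.2% and 27.8% of all tested genes. Members whose homozygous libraries lay above numbered 11 (17.2%), 8 (12.5%) and 26 (40.6%), against 26.9%, 31.3% and 26.2% of all genes. The median log2 difference of the members was -0.11, -0.25 and 0.22 in the 3 turns. The members include many genes of 1 genomic cluster, which are not independent.

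Whether the genotype difference itself differed between turns was tested in the same fit. Between the basal and middle turns 7 of the 64 tested members were called (10.9%), against 8.91% of all genes, and the share of members was near that background. The 6 with a larger difference in the basal turn (6.33% of all genes) were Cdh9 (log2 3.996 ± 0.64, SE; limma, adjusted p = 0.00426), Pcdha2 (2.82 ± 0.48, 0.00502), Cdh19 (2.497 ± 0.43, 0.00549), Cdh18 (2.31 ± 0.45, 0.00852), Cdh10 (2.23 ± 0.45, 0.00932) and Cdh22 (1.46 ± 0.28, 0.00835). The 1 with a smaller difference there (2.58% of all genes) was Cdh1 (-1.40 ± 0.28, 0.0095). Of the 6, 5 are type II cadherins and 3 of those are the chromosome 15 neighbours. Whether pieces named middle or basal match between the genotypes was not tested. The count fell to 0 without the first wild-type or the second homozygous middle library and rose to 10 without the second wild-type basal library, with the lone library left in a group assumed to vary like the other groups. At an adjusted p of 0.05, 18 members passed (28.1%), against 19.8% of all genes.

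Between the basal and apical turns 0 members were called, against 0.796% of all genes, and 20 (31.2%) had an unadjusted p under 0.05, against 28.4%. At an adjusted p of 0.05, 6 members passed (9.38%), against 11.2% of all genes. Between the middle and apical turns 0 were called, against 0% of all genes, and 2 members (3.12%) had an unadjusted p under 0.05, against 8.05%.

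Levels along the wild-type cochlea were compared between turns. From apex to base 0 members were called, against 0.0863% of all genes, and 8 (12.5%) had an unadjusted p under 0.05, against 20.3%. From apex to middle 0 were called, also against 0.0863%, and 7 (10.9%) had an unadjusted p under 0.05, against 19.9%. From middle to base 0 were called, against 0%, and 12 (18.8%) had an unadjusted p under 0.05, against 15.2%. Cdh6 had the clearest gradient, at 10.9 and 8.46 scaled FPKM in the apical turn, 5.19 and 4.78 in the middle turn and 4.45 and 2.64 in the basal turn, and the 3 turns did not overlap. Its log2 difference from apex to base was -1.25 ± 0.25 (SE; limma, adjusted p = 0.0549). Cdh5 ran the other way, from 10.7 and 6.74 in the apical to 19.5 and 15.8 in the basal turn (0.96 ± 0.32, adjusted p = 0.165). Summed endothelium markers (10 genes) fell over the same wild-type turns, from 206 and 148 at the apex to 118 and 101 at the base. The wild-type basal repeats stood apart from each other for many members, for example 4.95 and 13.6 for Cdh2 and 17.9 and 5.75 for Pcdh1, and their neuron markers differed as given above.

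The partners of the cadherins were taken from lists of the junction. Beta-catenin (Ctnnb1), which binds the cadherin tail, had a mean of 219 scaled FPKM and alpha-E-catenin (Ctnna1) of 71.0, and neither was called in any turn. Of the 13 tested catenins and junction partners, alpha-T-catenin (Ctnna3) alone was called within a turn. It fell in the middle turn from 3.49 and 3.26 to 0.265 and 0.0715 (limma, log2 -1.91, adjusted p = 0.00889). In the basal turn it rose from 0.336 and 0.500 to 2.30 and 3.16 (limma, 1.39, adjusted p = 0.00746). This was the course seen for Cdh9, Cdh10 and Cdh18. Of the 6 tested desmosomal genes Dsp (desmoplakin) was called, lower in the basal turn at 1.74 and 0.0283 against 14.6 and 7.42 (-2.77, adjusted p = 0.0086), a turn in which the epithelial marker sum was also low. Pkp3 (plakophilin 3) of the same list fell short of the call there (-2.46, adjusted p = 0.0125).

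Of the 13 tested large and atypical cadherins Clstn3 (calsyntenin 3, a synaptic cadherin) was called, higher in the basal turn at 38.0 and 27.3 against 10.1 and 7.68 (limma, 1.76, adjusted p = 0.00679). Clstn1 (a mean of 169 scaled FPKM) and Fat1 (20.04) were not called. None of the 5 tested nectins, 10 regulators of the protocadherin clusters such as cohesin, 7 enzymes that cleave cadherins and 6 repressors of E-cadherin was called in any turn. Their leading genes were Nectin2 (23.2) and Nectin3 (9.17), the cohesin subunits Rad21 (46.3) and Stag2 (28.1), the gamma-secretase subunits Psenen (44.4) and Ncstn (38.5), and the transcriptional repressors Zeb2 (17.7) and Twist1 (12.4). Zeb2, which represses Cdh1, differed on the log2 scale by -0.49 at the apex, -0.82 at the middle and 0.48 at the base, with adjusted p from 0.160 to 0.506. The median of the 6 repressors had the opposite sign in each turn, at 0.13, 0.49 and -0.11. A part of these repressors in the Cdh1 values was not tested. Between the basal and middle turns the genotype difference itself was called for 5 genes of these lists, and for 8.91% of all tested genes. It was larger in the basal turn for Ctnna3 (log2 3.30; limma, adjusted p = 0.0015), the neuronal alpha-N-catenin Ctnna2 (4.76, 0.00692) and Clstn3 (3.09, 0.00251), and smaller there for the planar polarity cadherin Celsr1 (-1.87, 0.00604) and the gamma-secretase subunit Psen2 (-1.29, 0.00453).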

How the data were processed

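The authors trimmed paired reads with fastp 0.20.0, aligned them to mm10 with STAR 2.7.3a, kept reads that mapped uniquely, and computed FPKM in StringTie 2.0. They deposited 1 table of FPKM, the only values used here; the annotation version and the strand setting are not given in the sources used here. Each library was scaled by the median of its ratios to the geometric mean of each gene, over 11552 genes at 1 FPKM or more in every library. A linear model of log2(scaled FPKM + 1) was fitted in limma 3.58.1 under R 4.3.3 to genes reaching 1 FPKM in 2 libraries, with 1 mean for each of 6 groups, a variance trend and 6 residual degrees of freedom. P-values were two-sided and adjusted by Benjamini-Hochberg over 16215 genes. Fold changes of low genes are understated on this scale. The fit was tested on simulated data, where 73 of 100 genes changed 4-fold and 2 of 15372 unchanged genes were called. Changes were planted only in genes of higher level than most members, so this does not show how the fit treats low genes. Members, classes, lists and tests were chosen with earlier results of these data known. Genes named were those called, the 3 of highest mean per class, the 2 largest non-overlapping rises and falls per comparison, and, of the lists, those called and the 2 highest. Other genes were named to complete a row of neighbours or a count, after their values were seen. Alternatives were pseudocount, filter, scaling, thresholds, replicate number, libraries left out and single turns. Promoters came from RefSeq (GRCm38.p6), exons from GENCODE vM21. Figures were drawn with matplotlib 3.10.9.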

Additional observations from a re-analysis of the deposited data

Results flagged for a closer look

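For 7 members the genotype difference itself differed between the basal and middle turns (limma, interaction of genotype and turn, adjusted over all tested genes). These were 10.9% of the 64 tested members, near the 8.91% of all tested genes called in the same comparison. The log2 values were 3.996 for Cdh9, 2.82 for Pcdha2, 2.497 for Cdh19, 2.31 for Cdh18, 2.23 for Cdh10, 1.46 for Cdh22 and -1.40 for Cdh1, with adjusted p between 0.00426 and 0.0095. In the first 6 genes homozygous libraries were lower than wild-type ones in the middle turn and higher in the basal turn, and in Cdh1 the reverse. The pattern was crossed. In the 6 genes the wild-type middle and homozygous basal libraries all lay above the homozygous middle and wild-type basal ones, and in Cdh1 below them. Whether the middle and basal pieces match between the genotypes was not tested, so a genotype effect that reverses along the cochlea is not shown. None of the 7 was called within a single turn. Summed markers of neurons, Schwann cells and epithelium differed between the same libraries, and their part was not tested.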

How the results depend on the processing

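Of the printed differences, those within 0.04 of 0 on the log2 scale (Cdh5 in each turn, Cdh10 in the apical turn) changed sign under some alternatives, and no other did. Cdh10 in the apical turn was 0.00296 with FPKM as deposited, 0.0947 with quantile normalization and -0.19 to 0.17 with each library left out. Cdh5 in the apical turn was 0.00315 with a pseudocount of 0.1, 0.0263 with FPKM as deposited, 0.0539 with quantile normalization, 0.0234 with only the libraries of that turn and -0.30 to 0.30 with each library left out. Cdh5 ranged likewise from -0.19 to 0.27 in the middle turn and from -0.44 to 0.48 in the basal turn, where quantile normalization gave -0.0478. At an adjusted p under 0.05 the members called numbered 2 in the middle turn, 8 in the basal turn, 6 for basal against apical and 18 for basal against middle. Quantile normalization gave 2 in the basal turn, namely Cdh22 and Pcdha2. For basal against middle, a pseudocount of 0.1 gave 3, no filter gave 0 (41 with an unadjusted p under 0.05) and a filter of 5 FPKM gave 2. With each library left out in turn, which leaves its group with 1 library assumed to vary like the other groups, the members called ranged from 0 to 10 for basal against middle, 0 to 7 in the basal turn, 0 to 5 for basal against apical and 0 to 1 on the mean of the turns. In each of these the highest came without the second wild-type basal library, and without it the basal calls were Cdh10, Cdh18, Pcdh1, Pcdh20, Pcdha2, Pcdha4 and Pcdhac2. Of the 12 such fits, 7 kept the call of Cdh9 for basal against middle, 5 that of Pcdha2, 4 that of Cdh19, 2 that of Cdh18 and 1 each of those of Cdh1, Cdh10 and Cdh22, with adjusted p of at most 0.0376 throughout. Ctnna3 kept its call for basal against middle in 12 and Clstn3 in 11, but within the basal turn Clstn3 kept it in 0 (adjusted p 0.01025 to 0.0348), Ctnna3 in 1 and Dsp in 2. The replicate block gave 2 for basal against middle and changed no other count of members. Deviations of same-numbered libraries correlated between -0.432 and 0.45 over 15 pairs of groups, over 0.1 in 4 and under -0.1 in 6. Many of these pairs set wild-type against homozygous mice, and turns cut from 1 cochlea need not deviate alike. Whether the numbers pair the samples is therefore not settled. FPKM as deposited moved the median of all genes in the middle turn from 0.04 to 0.17. With 2 libraries a group and unknown depth, a change missed here is not shown to be absent.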
